A study of Arabidopsis thaliana with 42 samples.

Results

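The genes described here are 101 strongly cycling transcripts of Arabidopsis thaliana whose wild-type level in long days was highest at ZT2 (zeitgeber time 2, 2 h after lights on). They were chosen by rule from the 33602 loci counted. Levels were expressed as CPM (counts as a share of the library's total, scaled to 1000000) and averaged over the 3 wild-type libraries of each time. A gene was kept if its highest time mean was at least 20 CPM, if that mean plus 0.5 was at least 8 times the lowest mean plus 0.5, and if the highest mean was at ZT2. The same limits without the condition on the peak time were met by 287 genes, of which 40 peaked at ZT6 and 18 at ZT22. Because the wild-type long-day libraries chose the genes, every wild-type value and every long-day difference between genotypes below is a description with no test. Tests were made on the mutant long-day libraries fitted alone and on the continuous-light libraries, none of which entered the rule.

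Many plant genes that peak shortly after dawn are driven jointly by light and by the circadian clock. The clock is a loop in which the MYB-like factors CCA1 and LHY act in the morning and repress genes of the evening, and the LNK proteins act as coactivators with MYB-like factors of the RVE family. Genes of the morning phase are known for roles in chlorophyll and carotenoid synthesis, light signalling, the timing of flowering and the handling of starch, and several respond to abscisic acid, the hormone of water deficit.

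RNA was sequenced from 9-day-old Col-0 seedlings, either wild type or carrying the link1link2 double mutation, grown on MS medium at 22 °C. The labels give neither the alleles nor how the mutant was made, and LINK1 and LINK2 were taken to be LNK1 and LNK2. In the long-day experiment (16 h light, 8 h dark) seedlings of both genotypes were taken every 4 h, the first at ZT2 and the last at ZT22, which gave 36 libraries, 3 for each time in each genotype. In the continuous-light experiment there were 3 libraries per genotype with no stated time of harvest, and the series text gives a longer growth time for it than the protocols do. The labels do not say whether the 3 libraries of a group came from different plates of plants, and p-values therefore cover only the scatter among them, possibly technical.

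Total counts were 7259559 to 13576565 per long-day library and 11448934 to 14911921 per continuous-light library. Chloroplast-encoded genes took 0.429% to 3.32% of long-day counts and more than 2% in 4 libraries, namely wild type ZT10 B and link1link2 ZT2 C, ZT22 A and ZT22 C. Libraries are named by the letter of their column, since the labels' replicate numbers do not map to these letters. Summed markers of root cells (9 genes, 92.7 to 135 CPM in wild type and 97.4 to 133 CPM in link1link2) and of dividing cells (6 genes, 92.6 to 154 and 65.8 to 161 CPM) overlapped between the genotypes in long days. Markers of green tissue were high in every long-day library (5 genes, 15910 to 37350 and 13720 to 33140 CPM), and the 3 seed markers summed to at most 8.74 and 15.0 CPM. In RNA from whole seedlings, fewer cells of a type and less RNA per cell cannot be told apart.

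The members of pathway lists among the 101 genes were counted with no test. The rule asked for a peak at ZT2, so the counts of dawn and of evening clock genes follow in part from it. Of 14 genes on a list of dawn clock components 6 were among the 101 (CCA1, RVE3 and the family LNK1 to LNK4), against none of 17 day-to-evening components. There were 8 of 23 light-signalling genes (PIF5 and 7 B-box factors), 4 of 9 genes of photoperiodic flowering (CDF1, CDF3, COL1 and COL2), and 2 each from lists of 14 genes of chlorophyll synthesis (HEMA1 and CAO), 19 of light harvesting and photoprotection (ELIP1 and SIG5) and 18 of starch and sugar metabolism (GBSS1 and BAM9). None was on the list of 16 flavonoid genes or of 12 genes of auxin and elongation.

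Promoter letters were counted because these genes peak together at a time of day. In the 300 bases before the annotated start (RefSeq, TAIR10.1), 97 of the 101 genes had a window, and each motif was searched on both strands. The G-box CACGTG, the core bound by many bZIP and bHLH factors, was present in 22 of the 97 windows (22.7%), against 8.03% of the windows of all 19438 genes tested in the mutant and 7.09% of all 27443. Letters of abscisic acid response elements were present as ACGTGTC in 15.5% of the windows against 4.61% of those of tested genes, and as ACGTGGC in 12.4% against 4.27%. These letters can overlap the G-box, and 15 of the 22 windows with a G-box also held at least 1 of these forms. The evening element AAAATATCT was present in 4.12% against 2.90%, the CCA1-binding letters AAAAATCT in 6.19% against 7.96%, the I-box core GATAAG in 7.22% against 14.6%, and CACATG in 16.5% against 13.1%. A match is a description of letters and no evidence that a factor binds there.

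Of the 10 genes with the widest wild-type range, 3 held a G-box, and their windows are shown with the G-box in capitals. They lie on TAIR10.1 at chr2:19245291-19245590 on the plus strand (CCA1), chr3:3923215-3923514 on the plus strand (LNK3) and chr5:21337127-21337426 on the minus strand (BETA-OHASE 2), and each is written 5′ to 3′ on the strand of its gene and ends at the base before the gene's start.
CCA1: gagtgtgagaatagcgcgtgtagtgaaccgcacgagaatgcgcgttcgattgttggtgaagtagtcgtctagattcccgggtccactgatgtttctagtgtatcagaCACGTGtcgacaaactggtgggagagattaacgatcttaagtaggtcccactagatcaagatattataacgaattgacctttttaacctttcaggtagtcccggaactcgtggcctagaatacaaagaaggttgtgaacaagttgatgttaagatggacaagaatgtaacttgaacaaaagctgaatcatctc
LNK3: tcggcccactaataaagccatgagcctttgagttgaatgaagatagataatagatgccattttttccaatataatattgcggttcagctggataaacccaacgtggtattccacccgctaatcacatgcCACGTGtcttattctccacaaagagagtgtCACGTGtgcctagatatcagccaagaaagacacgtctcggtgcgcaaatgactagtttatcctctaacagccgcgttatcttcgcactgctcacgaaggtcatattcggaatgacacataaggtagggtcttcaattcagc
BETA-OHASE 2: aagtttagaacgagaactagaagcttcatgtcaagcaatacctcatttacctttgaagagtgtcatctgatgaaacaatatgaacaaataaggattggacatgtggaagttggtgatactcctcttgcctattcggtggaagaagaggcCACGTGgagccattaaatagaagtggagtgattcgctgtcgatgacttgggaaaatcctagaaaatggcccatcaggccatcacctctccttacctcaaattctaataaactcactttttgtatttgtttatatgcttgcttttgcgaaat
The G-box lies 193 to 188 bases before the start in CCA1 and 151 to 146 bases before it in BETA-OHASE 2. LNK3 holds 2, at 171 to 166 and at 141 to 136 bases before its start. By role, a G-box was found in 3 of 6 windows of the LNK and dawn clock genes, 5 of 12 of the genes of abscisic acid and water deficit, 4 of 12 of the metabolic enzymes and none of 8 of the transporters. It was found in 3 of 8 windows of plastid pigments and light protection and 1 of 8 of the B-box factors. The flowering and growth regulators had 1 of 5, the thionins 0 of 2 and the genes in no role group 5 of 36. Of the windows of all genes tested, 8.03% held it.

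In wild type the 101 genes spanned ZT2 means of 20.8 to 3057 CPM (median 91.5) and ratios of highest to lowest mean of 8.05 to 229 (median 17.1). The lowest wild-type mean was at ZT18 in 47 genes, at ZT10 in 38, at ZT22 in 10 and at ZT14 in 6. The median gene stood at 29.0% of its ZT2 level at ZT6, 8.95% at ZT10, 13.6% at ZT14, 7.52% at ZT18 and 12.5% at ZT22. Just inside the limit on the ratio were AT5G12110 (8.05) and GolS1 (8.10), and just outside were CHLH (7.98), a subunit of magnesium chelatase, and HB-7 (7.94). Just inside the limit on the level were LTI65 (20.8 CPM) and BBX30 (21.4 CPM), and just outside were NAP (19.9 CPM) and AT4G24700 (19.8 CPM). The clock gene PRR9 was left out because its mean was 50.8 CPM at ZT2 and 53.7 CPM at ZT6, and RAB18, a dehydrin, likewise with 33.2 and 35.9 CPM. The genes closest to that limit inside it were CDF3 and AT1G13650, with ratios of ZT2 to the next time of 1.04 each.

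The morning peak was present in link1link2 as well. All 101 genes differed by time of day in the mutant libraries (edgeR's quasi-likelihood test, adjusted p under 0.05), as did 82.5% of the 20211 genes tested. By mean, 95 of the 101 were highest at ZT2, 4 at ZT6 and 2 at ZT18. In the same test 78 of the 101 were higher at ZT2 than at each of the other 5 times, against 8.24% of all genes tested. The whole rule, applied to the mutant means, was met by 70 of the 101 and by 107 of the 33602 loci (0.318%). Against ZT10, 97 were higher at ZT2 (23% of all genes were), against ZT14 97 (21.9%), against ZT18 98 (28.3%) and against ZT22 99 (29.3%). The gene lower at ZT2 than at every other time was LNK2, 1 of the mutated genes.

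Across the morning the comparison was less uniform. Between ZT2 and ZT6 in the mutant, 78 genes were higher at ZT2, 5 were lower and 18 were not called, with a median log2 difference of 0.94, while 21.1% of all genes were higher at ZT2 and 21.4% lower. The 5 lower at ZT2 were AT1G66100, AT2G16367, THI2.2, LNK2 and AT1G13650. The call of AT1G13650 (log2 difference -0.29 ± 0.12, SE) was lost under several settings, among them leaving out ZT2 A, ZT2 C, ZT6 B or ZT6 C. Calls of a higher level at ZT2 in BBX18, CAO and BBX25 were lost without ZT2 C, among other settings. The largest drops by ZT6 were those of AT1G24580 (a RING-domain protein, 2.61 ± 0.19), LEA3 (a late embryogenesis abundant protein, 2.54 ± 0.15), cPT4 (2.37 ± 0.10), RVE3 (2.19 ± 0.14), AT5G47610 (2.09 ± 0.14) and HAI1 (2.09 ± 0.27), all as log2 differences of ZT2 over ZT6 with SE.

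The time of the lowest level differed between the genotypes. In the mutant the lowest mean fell at ZT18 in 60 genes and at ZT22 in 31, and at ZT10 in 2 compared with 38 in wild type. Of those 38 genes, 20 were lowest at ZT18 in the mutant, 10 at ZT22, 6 at ZT14 and 2 at ZT10. All 10 genes lowest at ZT22 in wild type were lowest at ZT22 in the mutant as well. Some lowest times rest on small margins, as for CCA1 in wild type (2.04 CPM at ZT10 and 2.00 CPM at ZT14). By mean, 64 genes were higher at ZT22 than at ZT10 in wild type and 14 in link1link2. On the mutant libraries alone, a comparison added after the values were seen, 79 genes were higher at ZT10 than at ZT22, 7 were lower and 15 were not called, against 29.8% of all genes higher and 31% lower. The 7 lower at ZT10 were CCA1, COL1, AT5G15845, AT5G47610, BAM9, PPDK and TDT. The median log2 difference of ZT10 over ZT22 was 1.91, and without the libraries with over 2% chloroplast counts 81 genes were higher and 7 lower. In the same comparison 33 of the 40 ZT6-peaking genes were higher at ZT10 and 5 lower, with a median of 2.25. Of the 18 genes peaking at ZT22, 0 were higher and 17 lower. Differences between these groups of genes were not tested.

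**Figure D1:**
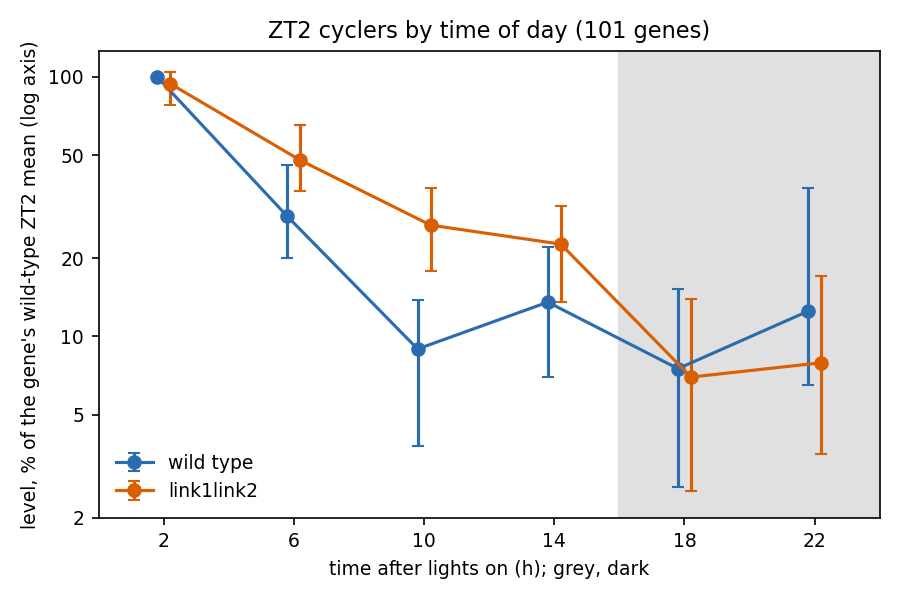
Level of the 101 genes by time of day in wild type and link1link2, as a percentage of each gene's wild-type ZT2 mean on a log axis; points are medians over genes, bars run from the first to the third quartile and grey marks the dark period. The mutant median lies above wild type at ZT6, ZT10 and ZT14 (26.9% against 8.95% at ZT10) and below it at ZT22 (7.92% against 12.5%).

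Set against wild type, the median of the 101 genes in the mutant was slightly lower at ZT2, higher through the rest of the light period and lower before dawn. The median log2 ratio of link1link2 to wild type began at -0.15 (ZT2), stood at 0.69 (ZT6), 1.67 (ZT10) and 0.64 (ZT14), and ended at -0.18 (ZT18) and -0.90 (ZT22). The mutant was the higher genotype in 27 of the 101 genes at ZT2, followed by 79 (ZT6), 98 (ZT10), 86 (ZT14), 44 (ZT18) and 20 (ZT22). Over all 20518 genes the medians at the 6 times lay within 0.02 of 0, and 49.3% to 53.5% were higher in the mutant. The rule used the wild-type levels in these ratios, so neither the counts nor the medians were tested. The 3 genes not higher in the mutant at ZT10 were LNK2, LNK1 and NCED3.

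The mutant libraries were also taken 1 at a time against the wild-type mean on the log2(CPM + 0.5) scale. They gave medians at ZT10 of 1.48, 1.46 and 1.52, and 1.503, 1.44 and 1.48 when wild type ZT10 B was left out. At ZT22 they gave -0.77, -0.79 and -0.81, of which the middle value is from the library with 0.974% chloroplast counts. At ZT2 they gave -0.16, -0.13 and -0.07, and at ZT18 -0.19, -0.30 and -0.07.

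**Figure D2:**
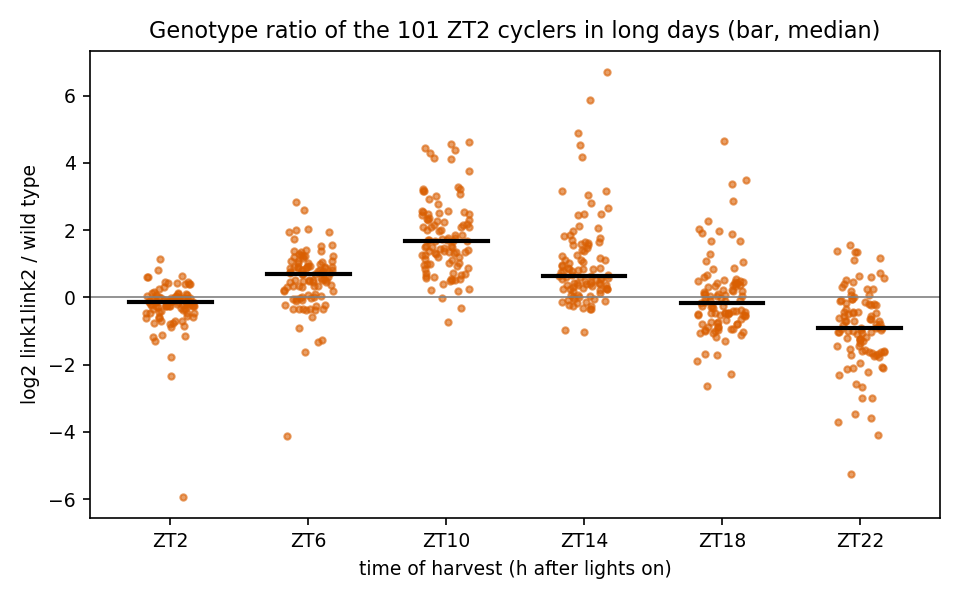
Log2 ratio of link1link2 to wild type for each of the 101 genes at the 6 long-day times; each point is a gene and each black bar the median. Points lie mostly above 0 at ZT6, ZT10 and ZT14 and mostly below 0 at ZT22, with medians of 1.67 at ZT10 and -0.90 at ZT22.

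The width of the daily swing varied from gene to gene. The ratio of highest to lowest mean in link1link2 had a median of 14.6 and ran from 2.02 (AT1G66100) to 131 (SQP1), a squalene monooxygenase-like enzyme. It was at least 8 in 75 genes and smaller than in wild type in 60, but the wild-type ratio chose the genes, and no reading is made of that count. SQP1 stood at 144, 139 and 131 CPM at ZT2 in wild type and at 117, 116 and 130 CPM in the mutant. At ZT22 it stood at 4.78, 3.63 and 5.44 CPM in wild type and at 0.972, 0.212 and 0.0992 CPM in the mutant. PPDK, pyruvate orthophosphate dikinase, had a narrower range in the mutant. Its means ran from 9.70 to 103 CPM in wild type and from 38.2 to 95.6 CPM in the mutant, where ZT18 was the highest mean by a small margin over ZT2 at 95.4 CPM.

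**Figure D3:**
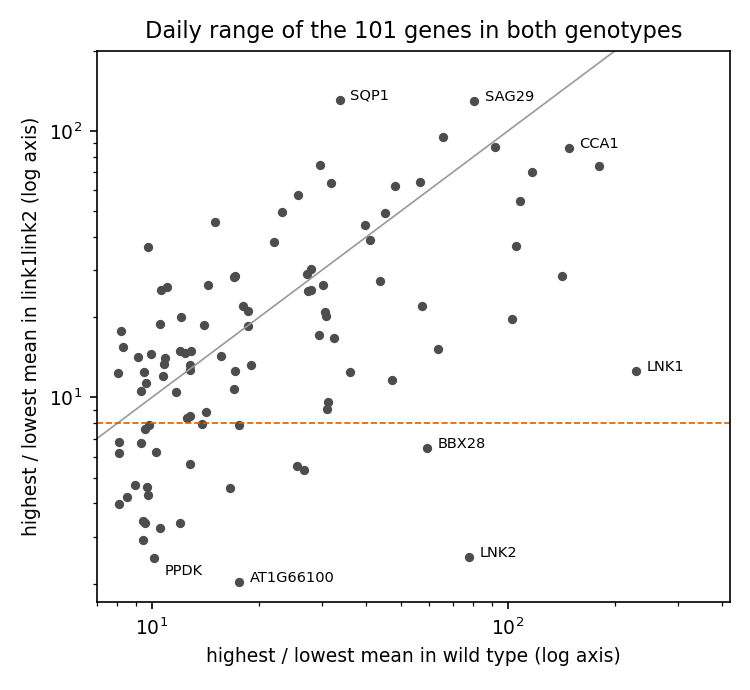
Ratio of the highest to the lowest time mean (each plus 0.5 CPM) of the 101 genes in wild type and in link1link2, both on log axes; the grey line marks equal ratios and the dashed line a mutant ratio of 8. Most genes (75) lie on or above the dashed line, while LNK2 (77.9 in wild type, 2.52 in the mutant), PPDK and AT1G66100 lie near the bottom.

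Both mutated genes belong to the group, and their transcripts were still counted in the mutant. LNK1 stood at 225, 235 and 231 CPM at ZT2 in wild type and at 68.3, 71.8 and 72.2 CPM in the mutant. At ZT18 wild type gave 0.563, 0.639 and 0.326 CPM and the mutant 4.69, 5.10 and 5.73 CPM. The mutant libraries were thus all lower in the morning and all higher at ZT18, with log2 ratios of -1.77 ± 0.07 (SE) and 3.36 ± 0.26. A neighbour that overlaps LNK1 by 245 bases held 25.2% as many counts, and reads of the 2 genes could not be told apart without strand. LNK2 stood in wild type at 628, 700 and 673 CPM at ZT2 and at 8.10, 9.58 and 6.51 CPM at ZT18. In the mutant it stood at 13.1, 10.2 and 10.98 CPM at ZT2 and at 27.1, 30.3 and 31.3 CPM at ZT18, so that its time of lowest level was the wild-type time of highest level. Its log2 ratio was -5.93 ± 0.14 at ZT2 and 1.93 ± 0.16 at ZT18. Without LNK1 and LNK2 the median ratio of the group was -0.15 at ZT2 and 1.67 at ZT10.

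The other LNK genes, close relatives of the mutated pair, were among those with the widest wild-type range. LNK4 stood at 77.0, 87.1 and 79.3 CPM at ZT2 in wild type and at 70.01, 74.3 and 74.3 CPM in the mutant. At ZT14 the 3 wild-type libraries gave 0, 0.110 and 0.133 CPM and the mutant ones 9.23, 9.53 and 9.14 CPM. The groups were close at ZT2 and far apart at ZT14. LNK3 stood at 73.5, 80.1 and 70.96 CPM at ZT2 in wild type and at 48.8, 46.95 and 47.5 CPM in the mutant, with 0.772, 0 and 0.578 CPM against 11.4, 13.1 and 10.2 CPM at ZT10. Its log2 ratio was -0.72 ± 0.08 at ZT2 and 4.55 ± 0.23 at ZT10.

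CCA1, the morning repressor of the clock, was lower in the mutant at its peak and higher in the afternoon. Wild type gave 363, 386 and 361 CPM at ZT2, and the mutant gave 178, 166 and 174 CPM. At ZT10 the values were 1.43, 2.201 and 2.48 CPM against 12.3, 11.5 and 11.8 CPM. At ZT22 they were 197, 183 and 210 CPM against 25.02, 22.4 and 24.01 CPM, a log2 ratio of -3.005 ± 0.10. RVE3, a MYB-like relative of CCA1, differed little at ZT2 (log2 ratio 0.06 ± 0.12) and was higher in the mutant at ZT10 (2.93 ± 0.44) from low counts, and its counts are uncertain since an overlapping neighbour held more reads than it did.

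Most of the 8 B-box zinc-finger factors are known to adjust light signalling in the seedling. All 8 were higher in the mutant at ZT10 and at ZT14, 7 were higher at ZT18, and 6 were lower at ZT2 and 6 at ZT22. Their median log2 ratio was 2.399 at ZT10, 1.17 at ZT18 and -1.27 at ZT22. BBX16 stood at 139, 127 and 141 CPM at ZT2 in wild type and at 119, 134 and 132 CPM in the mutant. At ZT10 it stood at 1.88, 1.30 and 1.57 CPM in wild type and at 25.8, 29.8 and 27.4 CPM in the mutant. The libraries of the genotypes overlapped at ZT2 and were well apart at ZT10. BBX24, a repressor of light responses, stood in wild type at 360, 374 and 355 CPM at ZT2 and at 7.76, 5.22 and 8.58 CPM at ZT18, and in the mutant at 320, 326 and 314 CPM and at 26.6, 28.7 and 25.8 CPM. BBX28 was lower in the mutant in the morning with 30.7, 29.9 and 29.5 CPM at ZT2 against 60.4, 67.9 and 63.9 CPM, and its mutant level at ZT18 was above wild type (log2 ratio 2.88 ± 0.29). Within the mutant 7 of the 8 were higher at ZT2 than at ZT6, as were 78 of the 101 and 21.1% of all genes tested. At ZT10, 7 were higher than at ZT22, as were 79 of the 101 and 29.8% of all genes tested. BBX28 was not called in the first comparison and BBX19 in the second. The calls of BBX18 and BBX25 in the first were lost without ZT2 C.

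**Figure D4:**
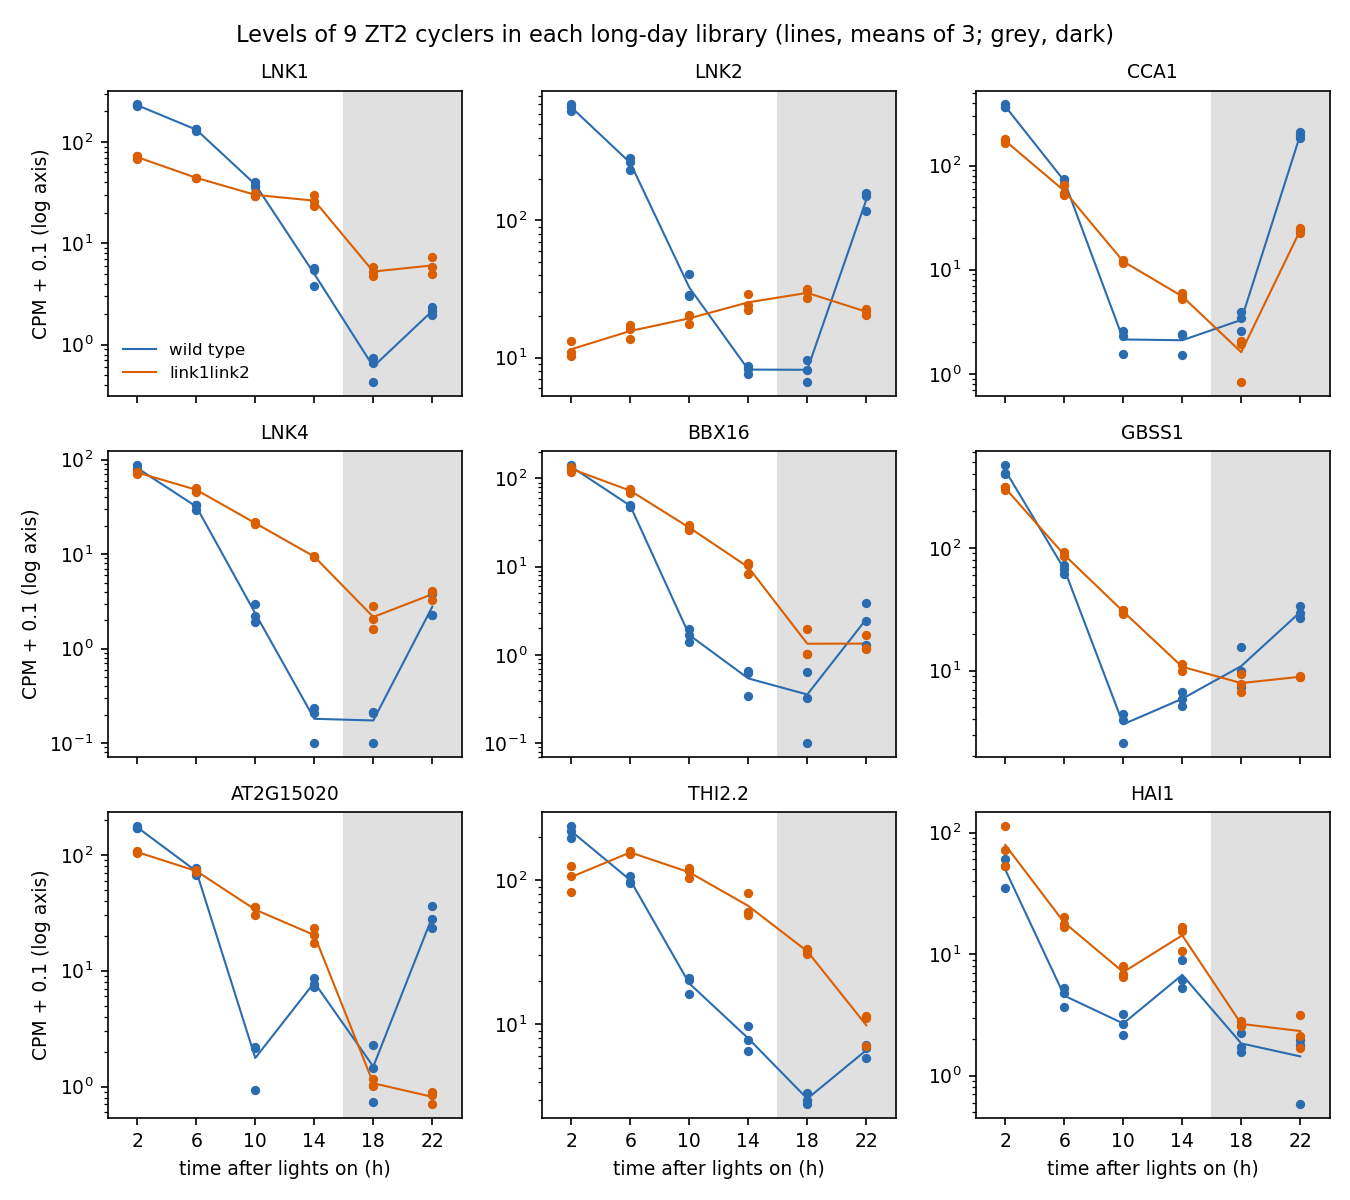
Level of 9 of the genes in each long-day library, as CPM plus 0.1 on a log axis against time after lights on; points are libraries, lines join the means of 3 and grey marks the dark period. For LNK4, BBX16, GBSS1 and AT2G15020 the mutant points lie above wild type at ZT10 and ZT14, while THI2.2 has its mutant maximum at ZT6. LNK2 in the mutant has its highest mean at ZT18, and its wild-type means are lowest and nearly equal at ZT14 and ZT18 (8.09 and 8.07 CPM).

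Among regulators of flowering and growth, all 5 were lower in the mutant at ZT2 and higher at ZT10 and ZT14. COL2, a relative of CONSTANS, stood at 247, 237 and 240 CPM at ZT2 in wild type and at 143, 147 and 145 CPM in the mutant, and at ZT22 at 95.3, 92.7 and 108 CPM against 23.0, 25.5 and 26.1 CPM. CDF1, a DOF repressor of CONSTANS, stood at 24.5, 19.4 and 28.7 CPM at ZT22 in wild type and at 5.59, 3.503 and 5.36 CPM in the mutant. PIF5, a bHLH factor that promotes elongation, was higher in the mutant at ZT22, where the other 4 were lower. At ZT22 PIF5 stood at 32.3, 32.5 and 43.7 CPM in wild type and at 74.5, 80.4 and 72.03 CPM in the mutant. At ZT14, in the light period, where all 5 were higher, its log2 ratio was 2.44 ± 0.10. COL1 was counted together with AT5G15845, a transcript that overlaps it by 1807 bases and has nearly the same counts, so the pair is 1 signal.

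The 8 genes of plastid pigments and light protection all had a log2 ratio above 0 at ZT10 and ZT14, with a median of 1.35 at ZT10. BETA-OHASE 2, a carotene hydroxylase, stood at 0.551, 0.388 and 0.496 CPM at ZT10 in wild type and at 9.64, 8.06 and 8.32 CPM in the mutant, with reads shared in part with an overlapping neighbour. CAO, which makes chlorophyll b, stood at 102, 84.8 and 91.3 CPM at ZT10 in wild type and at 233, 226 and 229 CPM in the mutant. HEMA1, which catalyses the first committed step of tetrapyrrole synthesis, stood at 88.2, 94.0 and 76.6 CPM at ZT10 in wild type and at 257, 271 and 345 CPM in the mutant. For all 3 the groups were apart at ZT10. SIG5, a plastid sigma factor, and ELIP1, an early light-induced protein, had log2 ratios of -0.38 ± 0.07 and 0.42 ± 0.15 at ZT2, and 1.39 ± 0.10 and 0.58 ± 0.22 at ZT10. At ZT14 ELIP1 did not differ clearly, with 10.85, 10.8 and 11.14 CPM in wild type and 9.09, 8.56 and 14.91 CPM in the mutant.

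Metabolic enzymes showed the pattern in all 12 genes at ZT6 and ZT10, where every one had a higher mutant level, and 11 of 12 were lower at ZT22. GBSS1, the starch synthase that makes amylose, stood at 471, 400 and 410 CPM at ZT2 in wild type and at 294, 313 and 312 CPM in the mutant. At ZT10 it stood at 4.301, 2.46 and 3.88 CPM against 30.9, 30.8 and 28.8 CPM, and at ZT22 at 29.3, 26.6 and 33.6 CPM against 8.75, 8.92 and 8.73 CPM. The order of the genotypes was thus reversed between ZT10 and the other 2 times. CAT2, the main leaf catalase and the most abundant of the 101 at ZT2, stood at 180, 200 and 172 CPM at ZT10 in wild type and at 833, 876 and 1108 CPM in the mutant. VTC2, which controls ascorbate synthesis, had log2 ratios of 1.34 ± 0.07 at ZT10 and -1.36 ± 0.07 at ZT22. Of the 8 transporters, all were higher in the mutant at ZT6, ZT10 and ZT14, and SAG29, a sucrose transporter of the SWEET family, stood at 4.36, 5.24 and 3.89 CPM at ZT6 in wild type and at 36.5, 31.6 and 32.8 CPM in the mutant.

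Of the 12 genes of abscisic acid and water deficit, 11 were higher in the mutant at ZT10, 8 were higher and 4 lower at ZT18 (median log2 ratio 0.28), and 6 were higher and 6 lower at ZT22 (0.07). HAI1, a protein phosphatase of abscisic acid signalling, stood at 35.1, 60.5 and 52.9 CPM at ZT2 in wild type and at 52.5, 71.1 and 113 CPM in the mutant, where the groups overlap. At ZT6 it stood at 4.65, 5.14 and 3.55 CPM against 20.03, 16.6 and 17.5 CPM, where they do not. NCED3, the rate-limiting enzyme of abscisic acid synthesis, had log2 ratios of 0.00 ± 0.19 at ZT6 and -0.01 ± 0.23 at ZT10. The mutant library ZT2 C gave the highest ZT2 value for HAI1, NCED3 (71.96 CPM against 42.8 and 55.5), RD20, a caleosin (63.4 CPM against 35.1 and 26.8), and LTI65, a protein of desiccation response (108 CPM against 12.5 and 24.7). The same library had 2.17% chloroplast counts, and the part of that in these values was not tested. It was also the highest of the 3 for GolS2, a galactinol synthase (17.9 CPM against 12.4 and 9.26), whose log2 ratio to wild type at ZT2 was -0.85 ± 0.23.

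The 2 thionins were among the 4 genes whose highest mutant mean was at ZT6. The thionin THI2.2, a member of a family of antimicrobial peptides, stood at 220, 197 and 237 CPM at ZT2 in wild type and at 107, 126 and 82.7 CPM in the mutant. At ZT6 it stood at 107, 96.8 and 96.0 CPM against 158, 153 and 156 CPM, and at ZT18 at 2.70, 2.87 and 3.26 CPM against 30.6, 32.1 and 33.2 CPM. The mutant was lower than wild type at ZT2 and higher from ZT6 to ZT18. The second thionin, AT1G66100, stood at 80.8, 57.2 and 73.4 CPM at ZT2 in wild type and at 15.7, 18.5 and 9.55 CPM in the mutant. Its wild-type libraries at ZT6 (77.9, 56.4 and 66.7 CPM) overlapped those at ZT2, so its wild-type peak at ZT2 is weak. Both thionins were higher in the mutant at ZT10 and ZT14, as were 98 and 86 of the 101 genes. Reads of related thionin genes may have been shared between them. AT2G15020, of unknown function, took the direction of the group's medians at ZT10 and ZT22. It had the lowest log2 ratio of the group at ZT22 (-5.27 ± 0.24): 23.5, 27.9 and 35.9 CPM in wild type and 0.607, 0.743 and 0.794 CPM in the mutant, against 2.095, 2.07 and 0.826 CPM and 30.2, 35.1 and 35.3 CPM at ZT10.

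The 40 genes placed in no role group, among them several of unknown function, took the same direction at ZT10, where all 40 were higher in the mutant, and 36 of 40 were lower at ZT22 (median log2 ratios 1.696 and -1.04). Within the mutant 31 of them were higher at ZT2 than at ZT6 and 2 were lower, and 35 were higher at ZT10 than at ZT22 and 2 were lower. Over all genes tested, 21.1% were higher and 21.4% lower in the first comparison, and 29.8% and 31% in the second.

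In continuous light most of the 101 genes were not called between the genotypes. At an adjusted p under 0.05 (edgeR's quasi-likelihood test over 20158 genes), 11 were higher in link1link2, 11 were lower and 79 were not called, against 2.18% of all genes higher and 2.98% lower. The mutated genes LNK1 and LNK2 are among the 11 lower, and of the other 99 genes 11 were higher and 9 lower. Over the 101 genes the median log2 ratio was -0.01, and 40 of the 101 had an unadjusted p under 0.05, as did 3399 of the 20158 genes tested. The count of higher genes was 7 without wild type A, wild type C or link1link2 B and 17 without link1link2 A, and that of lower genes was 7 without wild type B. The same test called 13 of 39 ZT6-peaking genes higher and 13 lower, and 1 and 6 of the 18 peaking at ZT22; these differences between groups of genes were not tested. Levels in continuous light ran from 2.46 to 1284 CPM in wild type and from 2.49 to 1411 CPM in the mutant, with BBX30 the lowest and CAT2 the highest in both. The summed level of the 5 green-tissue markers was 23460 to 25600 CPM in wild type and 26820 to 28220 CPM in the mutant, with no overlap, and its part in these results was not tested. Root markers (108 to 117 CPM and 105 to 120 CPM) and markers of dividing cells (110 to 114 CPM and 110 to 113 CPM) overlapped, and in each genotype 2 of the 3 seed markers were at 0 in all 3 libraries.

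The genes that rose in continuous light came from several roles. THI2.2 stood at 14.2, 9.80 and 15.8 CPM in wild type and at 50.4, 48.3 and 56.8 CPM in the mutant, a log2 ratio of 2.01 ± 0.15 (adjusted p = 0.00011, edgeR's quasi-likelihood test). LNK4 stood at 13.8, 15.6 and 13.4 CPM against 21.3, 21.0 and 25.7 CPM (0.69 ± 0.10). PIF5 stood at 48.1, 58.6 and 52.03 CPM against 73.6, 79.5 and 73.9 CPM (0.54 ± 0.07). BBX24 stood at 109, 123 and 130 CPM against 174, 162 and 173 CPM (0.52 ± 0.07). In none of these genes did the genotypes overlap, and each was also above wild type at ZT10, ZT14 and ZT18 in long days. AT3G53830, an RCC1-family protein, rose by 1.01 ± 0.19 on the log2 scale from low levels. GolS2, AT2G41250, AT5G15950, AT5G15948, ABF3 and TDT rose by 0.21 to 0.45 on that scale. AT5G15948 and AT5G15950, an S-adenosylmethionine decarboxylase, had nearly the same counts and are 1 signal. The calls of GolS2, AT2G41250 and ABF3 were lost when any of several single libraries was left out, and those of GolS2 and AT2G41250 also under DESeq2.

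LNK2 fell furthest in continuous light, with 143, 141 and 140 CPM in wild type and 16.2, 17.1 and 16.7 CPM in the mutant, a log2 ratio of -3.05 ± 0.06. LNK1 stood at 37.7, 44.8 and 38.5 CPM against 21.5, 24.8 and 24.99 CPM (-0.74 ± 0.08). CCA1 stood at 91.9, 98.1 and 95.5 CPM against 51.8, 56.2 and 60.3 CPM (-0.73 ± 0.07, adjusted p = 2.38e-07, edgeR's quasi-likelihood test). COL2 stood at 54.5, 54.7 and 60.8 CPM against 38.3, 41.5 and 43.9 CPM (-0.43 ± 0.07). These genes were also lower in the mutant at ZT2 in long days. VTC2 fell by 0.36 and RXW8 by 0.35 on the log2 scale, AT3G44970, a cytochrome P450, by 0.64, and ERD9, AT2G41870, AO and scpl10 by 0.26 to 0.61. The calls of ERD9, AT2G41870 and AO were each lost without any of at least 3 libraries, and that of AO also under DESeq2 and under its size factors in edgeR. TDT and scpl10 were close to the threshold, with adjusted p of 0.0463 and 0.0492 (edgeR's quasi-likelihood test). GBSS1 was lower in all 3 mutant libraries (60.5, 75.5 and 85.8 CPM against 103, 121 and 126 CPM) and was not called, with a log2 ratio of -0.63 ± 0.17, but it was called by DESeq2 and without link1link2 A or C. AT2G16367, AT1G13650 and HSP70 were likewise called by DESeq2 alone of the 2 methods, with log2 ratios of -1.03, -0.73 and 0.565 there. BBX16, with 34.6, 36.7 and 33.3 CPM against 28.8, 35.7 and 40.4 CPM, overlapped between the genotypes (0.03 ± 0.12).

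**Figure D5:**
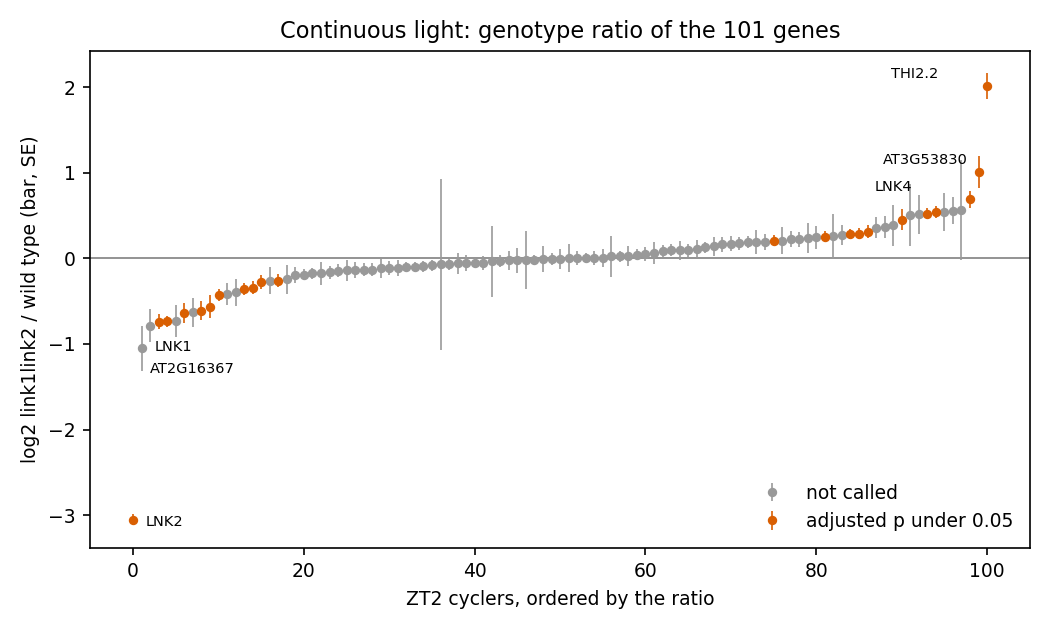
Log2 ratio of link1link2 to wild type in continuous light for the 101 genes, ordered by that ratio; bars are SE and coloured points were called at an adjusted p under 0.05. LNK2 (-3.05) and THI2.2 (2.01) lie apart from the rest, and 79 genes were not called.

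On the pathway lists as a whole, continuous light gave 2 higher and 7 lower of the 14 dawn clock genes, 4 and 8 of the 17 day-to-evening clock genes, 4 and 1 of the 23 light-signalling genes and 2 and 1 of the 9 flowering genes. Over all genes tested, 2.18% were higher and 2.98% lower. The mutated genes LNK1 and LNK2 are among the 7 lower dawn clock genes. There were 1 higher and 2 lower of 13 tested genes of chlorophyll synthesis, 3 and 1 of 19 of light harvesting, 1 and 4 of 17 of starch and sugar, none higher and 13 lower of 15 of flavonoid synthesis, and no call among 12 of auxin and elongation.

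No source states that strand was used in counting. Of the 100 genes in the annotation 30 overlapped another counted locus, and in 16 of these the other locus held at least 50% as many counts, so their values are uncertain. These were BETA-OHASE 2, BBX32, RVE3, ERD9, COL1, AT5G15845, MIPS2, BBX25, AT1G48100, BAM9, UP6, AFR, AT2G24545, GBF3, GolS1 and AT5G12110. AFR and AT2G24545 overlap by 1320 bases and are 1 signal, like COL1 and AT5G15845. AT5G15948, which the annotation lacks, is outside these counts, although it and AT5G15950 are 1 signal. Both genes of such a pair were counted in every number of genes given here.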

How the data were processed

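The authors deposited whole-number counts of reads at 33602 loci, not normalized, in a table per experiment whose columns name alignment files, per the file headers. Per the labels' protocols, libraries were made from poly(A) RNA by the TruSeq procedure. The genome build was TAIR 10 per the submitters' processing notes; the aligner, counter, strand setting and treatment of multiply mapped reads are not given in the sources used here. Mutant columns carry a laboratory name and were assigned by elimination. Of the loci, 32835 (97.7%) matched a RefSeq TAIR10.1 locus tag, which gave symbols (its synonyms included), overlaps and promoters; the tables hold no coordinates.

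CPM were computed from column totals. The 18 mutant long-day libraries, the 6 continuous-light libraries and, for ratios with no test, all 36 long-day libraries (12 groups) were each fitted with edgeR 4.0.16 in R 4.3.3 (filterByExpr, TMM, robust quasi-likelihood test), and p-values were Benjamini-Hochberg adjusted over all genes tested. All 101 genes passed the filter on low counts in each fit. DESeq2 1.42.0 was an alternative. The script was tested on simulated data. Libraries within groups differed by more than sampling noise (chi-square divided by its degrees of freedom, 1.91 to 22.8) and each was counted as 1 sample.

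The genes and lists were chosen with earlier results of these data known, and role groups were assigned after the genes were known. Named genes were those on a pathway list, the 10 with the widest wild-type range, the 10 with the highest and lowest genotype ratio at ZT2, up to 10 called in each direction in continuous light and between ZT2 and ZT6 in the mutant, and 2 on each side of each limit. CAT2, SQP1, PPDK, NCED3 and the overlapping genes were named after their values were seen, as were those called between ZT10 and ZT22, the extremes at ZT22, TDT and scpl10.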

Additional observations from a re-analysis of the deposited data

Results flagged for a closer look

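In 3 of the 101 genes the libraries of the genotypes moved in opposite directions from ZT2 to ZT6. All wild-type libraries of these 3 genes lay lower at ZT6 than at ZT2, and all mutant libraries lay higher at ZT6 than at ZT2. The difference between the genotypes was not tested, because wild-type long-day values chose the genes. LNK2 went from a mean of 667 to 263 CPM in wild type and in link1link2 from 11.4 to 15.6 CPM, a log2 change of 0.49 in the mutant. THI2.2 went from 218 to 99.9 CPM in wild type and from 105 to 156 CPM in the mutant (0.62). AT2G16367 went from 50.02 to 16.1 CPM in wild type and from 21.5 to 33.3 CPM in the mutant (0.68).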

How the results depend on the processing

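The number of genes meeting the rule was 99 to 104 when any single wild-type library was left out, with at least 97 of the 101 kept, 67 with a ratio of at least 12, and up to 116 under the other settings. Counts in the mutant long-day libraries stayed within 1.5 times of the reported ones under every setting run: leaving out single libraries gave 101 genes for time of day, 75 to 82 higher and 4 to 5 lower at ZT2 than at ZT6, 97 to 99 and 1 at ZT14, 99 and 1 at ZT22, and 77 to 83 higher and 7 lower at ZT10 than at ZT22. In continuous light the counts were 7 to 17 higher and 7 to 15 lower when single libraries were left out, and 9 and 13 with DESeq2. With the column letters as a replicate block they were 18 higher and 18 lower; the letters are not known to pair samples. No called gene changed sign. Low counts limit the ratios at the times of lowest level; LNK4 at ZT14, for example, stood at 0, 0.110 and 0.133 CPM in wild type.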
